A study of Mus musculus with 2 samples.

Results

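To ask how the genes of glucose use and oxygen sensing differed after orthodontic force, 35 genes were followed by their symbols in the single-cell tables of both libraries: glucose transporters, the enzymes of glycolysis, the lactate branch, and the sensors and targets of the hypoxia response. All 35 were found among the 27998 genes of the tables. Both libraries held cells sorted for F4/80 and CD11b from the alveolar bone of male C57/B6 J mice aged 8 weeks. In the OTM (orthodontic tooth movement) group, a NiTi coil spring tied the left first molar to the incisors for a week, and the control library came from mice labelled as control. Mice were divided at random between the groups, the cells of single mice cannot be told apart in a library, and 1 library was made per condition. Both groups were digested with collagenase at body temperature before sorting. No p-value can therefore be had, and every interval below is a 95% interval for counting error alone, which covers neither differences between mice nor between sorts or library preparations.

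Glycolysis turns glucose into pyruvate, and lactate dehydrogenase and a lactate exporter allow it to run without oxygen. In oxygen, the prolyl hydroxylases encoded by Egln1 and Egln3 mark HIF-1α, the product of Hif1a, for destruction. When oxygen is low, or in inflamed myeloid cells, HIF-1α persists and activates genes with a short core sequence, searched here only as ACGTG. Such genes include those of glycolytic enzymes and of the angiogenic factor encoded by Vegfa. Neutrophils depend largely on glycolysis, and monocytes and macrophages raise it on activation.

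The 6 stretches below show, for 3 genes that were lower and 3 that were higher in the OTM library, whether this core lies just before the start of the gene. Each gives the 150 bases before the RefSeq start on GRCm38.p6, 5′ to 3′ on the strand of the gene, with ACGTG and its reverse complement CACGT in capitals.
Vegfa: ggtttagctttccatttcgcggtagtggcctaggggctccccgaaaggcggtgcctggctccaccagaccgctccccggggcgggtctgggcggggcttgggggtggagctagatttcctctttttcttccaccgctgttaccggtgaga
Egln1: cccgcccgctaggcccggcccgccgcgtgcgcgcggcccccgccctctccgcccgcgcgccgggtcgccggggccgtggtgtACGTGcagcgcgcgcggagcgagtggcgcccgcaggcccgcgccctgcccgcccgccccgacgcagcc
Pfkfb3: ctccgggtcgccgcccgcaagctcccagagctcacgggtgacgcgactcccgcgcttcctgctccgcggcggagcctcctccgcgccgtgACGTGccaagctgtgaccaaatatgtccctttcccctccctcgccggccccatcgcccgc
Gpi1: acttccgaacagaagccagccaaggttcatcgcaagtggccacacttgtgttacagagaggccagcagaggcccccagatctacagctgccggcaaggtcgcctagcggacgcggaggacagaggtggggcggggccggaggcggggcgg
Ldha: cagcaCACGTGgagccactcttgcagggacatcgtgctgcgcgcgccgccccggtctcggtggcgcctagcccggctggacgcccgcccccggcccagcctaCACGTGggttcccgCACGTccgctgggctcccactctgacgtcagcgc
Slc16a3: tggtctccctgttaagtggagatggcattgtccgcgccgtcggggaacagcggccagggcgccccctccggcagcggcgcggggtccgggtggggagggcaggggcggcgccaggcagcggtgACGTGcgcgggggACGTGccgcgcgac
They lie at chr17:46032378-46032527 (minus strand) for Vegfa, chr8:124949255-124949404 (minus) for Egln1, chr2:11553930-11554079 (minus) for Pfkfb3, chr7:34230337-34230486 (minus) for Gpi1, chr7:46845654-46845803 (plus) for Ldha and chr11:120948917-120949066 (plus) for Slc16a3. Of the 6, Ldha had 5 matches, of which 4 came from a pair of palindromes CACGTG read on both strands. Slc16a3 had 2, Egln1 and Pfkfb3 1 each, and Vegfa and Gpi1 0. Both the higher and the lower genes thus included some with the core and some without. Another listed Vegfa start did have the core in its 250 bases. RefSeq promoters were matched for 31 of the 35 members, all but Slc2a3, Bnip3l, Ndrg1 and Ero1l. In the 250 bases before the start nearest to the annotated gene start, 14 of the 31 held the core on either strand (45.2%), against 16.6% of all 32817 listed promoters. Hif1a itself had 3 matches, of which 2 came from a palindrome CACGTG read on both strands, and Bnip3 had 2, both from such a palindrome. Hk2 and Pgk1 had 2 separate matches each, and Slc2a1 had 1. A match gives letters only, not a site in use.

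The OTM library held more UMIs per cell. The control library kept 2835 cells with a median of 3998 UMIs (unique molecular identifiers, each counting 1 captured transcript), and the OTM library 2052 cells with a median of 6861.5. Levels are therefore given as CPM, UMIs of a gene per 1e6 UMIs of the same cells. Clusters were named from marker genes, as X-like cells. By these names 53.1% of control cells (95% Clopper-Pearson interval 51.2 to 54.9) and 48.9% of OTM cells (46.7 to 51.1) were monocyte- or macrophage-like, and 44.9% and 51.1% were neutrophil-like, although the labels call the cells macrophages. Nonclassical monocyte-like (317 cells) and resident macrophage-like (59 cells) clusters formed in the control only. The OTM monocyte-like clusters were led by Saa3 and Apoc1 in one and by Hbb-bs, Cxcl1 and Il6 in the other, and 1 control mature neutrophil-like cluster by interferon-response genes such as Ifit3 and Isg15. The MHC class II-high-like cluster of the OTM library was more mixed than that of the control. Its 5 MHC class II markers summed to 12780 CPM against 40430 CPM in the control, its 6 nonclassical monocyte markers to 241 against 113 CPM, and its 7 resident macrophage markers to 531 against 147 CPM. With both libraries clustered together, 93 in place of 263 OTM cells had this name, and 159 OTM cells were nonclassical monocyte-like and 25 resident macrophage-like. The control mature neutrophil-like cells held basophil transcripts: the 4 basophil or mast cell markers summed to 413 CPM there and to 1.96 CPM in the OTM library. Adgre1, which encodes F4/80, stood at 88.3 CPM in the control and 94.7 CPM in the OTM monocyte- or macrophage-like cells, and at 8.16 and 7.42 CPM in the neutrophil-like cells. A gene counted as past the fold when its OTM over control ratio of CPM was at least 1.5 or at most 1/1.5, among genes with 50 or more UMIs in the 2 libraries together.

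In the monocyte- or macrophage-like cells (1505 control, 1003 OTM), the members past the fold upwards in the OTM library included the end of the pathway: the pyruvate kinase gene Pkm, the lactate dehydrogenase gene Ldha and the lactate exporter gene Slc16a3, whose value lay close to the limit, together with Gpi1, Pfkl, Hif1a and Ero1l. Those lower were Vegfa, Egln1, Pfkfb3 and Pfkfb4. Of the 31 members with enough UMIs, 7 were past the fold upwards, against 5.39% of all 8389 genes tested, and 4 downwards, against 16.6%. The median log2 ratio was 0.28 over the members and -0.16 over all genes. In the neutrophil-like cells (1274 control, 1049 OTM), 5 of 31 members were past the fold upwards (Slc2a1, Slc2a6, Gpi1, Pkm and Ldha), against 5.92% of 7114 genes. A further 6 were past it downwards (Egln1, Vegfa, Ndrg1, P4ha1, Mif and Higd1a), against 17.9%, and the median log2 ratio was 0.07 against -0.15. Adm, Ak4, Pdk1 and Egln3 had too few UMIs in both classes. Over all cells, where a shift in the mix of cells also counts, 4 of 33 members lay upwards (4.58% of 9409 genes) and 4 downwards (18.4%).

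In most of the finer groups, more members were past the fold upwards than downwards. In monocyte-like cells 7 of 30 members were past the fold upwards (background 7.84%) and 4 downwards (16.9%), and in dividing monocyte-like cells 7 of 24 (7.48%) and 1 (10.8%). In MHC class II-high-like cells the counts were 9 of 28 (11.5%) and 5 (15.4%). Among the neutrophil groups, the counts were 3 of 26 upwards (7.24%) and 5 downwards (23.4%) in mature, 5 of 26 (8.52%) and 2 (13.8%) in immature, and 4 of 25 (8.78%) and 3 (17.0%) in early neutrophil-like cells. Of these 6 groups, the mature neutrophil-like cells alone had more members past the fold downwards than upwards. Under a scaling (TMM) that centres the bulk of the genes, this turned to 8 upwards and 3 downwards. The counts over all 3798 genes tested there moved too, from 275 upwards and 888 downwards to 517 and 489. A few groups could be compared only after both libraries were clustered together, an alternative taken up for them after seeing the data. There 10 of 24 members lay upwards (11.6%) and 2 downwards (16.4%) in nonclassical monocyte-like cells, 5 of 20 (13.1%) and 3 (13.4%) in progenitor-like cells, and 3 of 21 (8.14%) and 1 (10.0%) in dividing immature neutrophil-like cells.

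**Figure D1:**
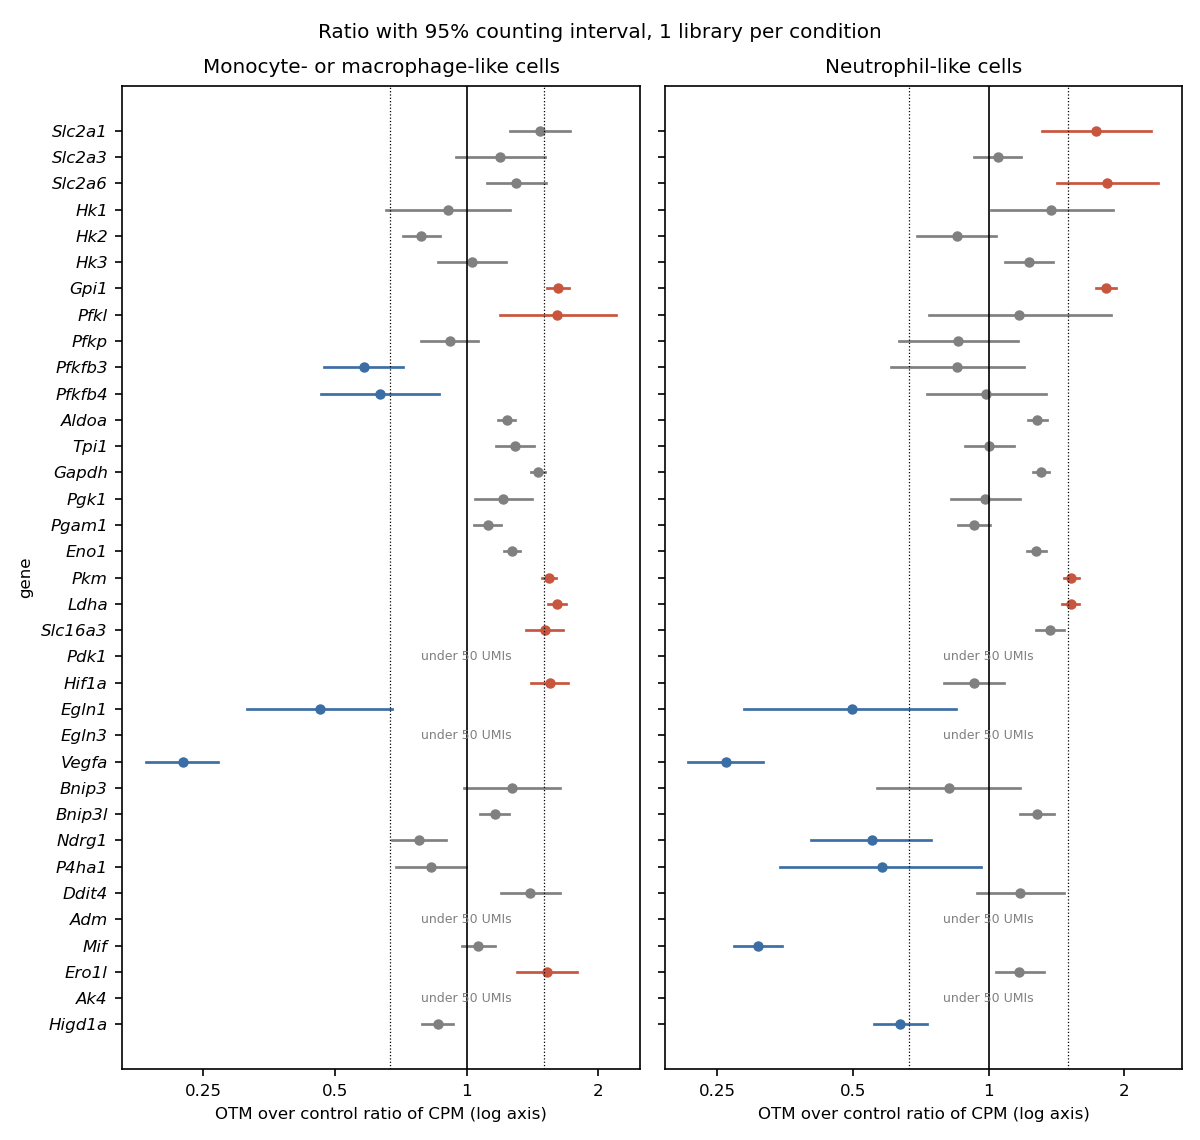
OTM over control ratio of CPM (x axis, log scale) for each member (y axis) in monocyte- or macrophage-like cells (left) and neutrophil-like cells (right). Points are ratios from 1 library per condition, bars are 95% counting intervals, dotted lines mark the 1.5-fold limits, and members past them are red (higher in OTM) or blue (lower). Vegfa lies farthest to the left in both panels, at 0.224 and 0.261.

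The TMM scaling moved every log2 ratio up by 0.20 over all cells, by 0.16 in the monocyte- or macrophage-like and by 0.15 in the neutrophil-like cells. Under it 84.6% of the members past the fold over all cells were higher, in place of 50%, and of all genes past it 45.4%, in place of 19.9%. Also under it 10 members were past the fold upwards and 3 downwards in the first class, so that 76.9% of the members past the fold were higher in place of 63.6%. In the second class the numbers were 7 and 5, or 58.3% in place of 45.5%. Of all genes past the fold, 44.5% were then higher in the first class, in place of 24.5%, and 46.8% in the second, in place of 24.8%. Hk1 and Pfkp in the first class and Pfkfb4, Pgk1, Pgam1 and Hif1a in the second, all within the fold, passed from below 1 to above 1. Counted per cell instead, where the OTM library held 1.70 and 1.47 times as many UMIs per cell in these classes, only Vegfa, Egln1 and Pfkfb3 of the 31 members were below 1 in the first class. In the second these were Vegfa, Egln1, Ndrg1, P4ha1, Mif and Higd1a.

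Vegfa, on chromosome 17 (46016993 to 46032369, minus strand), was lower in the OTM library in every group of cells that could be compared. In monocyte- or macrophage-like cells it stood at 70.0 CPM in the control (interval 64.3 to 76.1, 552 UMIs) and 15.7 CPM in the OTM library (13.2 to 18.5, 140 UMIs), a ratio of 0.224 (0.185 to 0.270). In neutrophil-like cells it stood at 74.6 CPM (67.9 to 81.6, 466 UMIs) and 19.5 CPM (16.5 to 22.9, 147 UMIs), a ratio of 0.261 (0.215 to 0.315). The intervals of the 2 libraries did not overlap in either class.

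Within the classes, Vegfa in monocyte-like cells was 75.6 CPM in the control and 12.3 CPM in the OTM library, a ratio of 0.162 (0.120 to 0.217). Dividing monocyte-like cells had 69.9 and 11.3 CPM, a ratio of 0.162 (0.0908 to 0.271). MHC class II-high-like cells had 71.4 and 24.5 CPM, a ratio of 0.343 (0.247 to 0.472). The 3 monocyte groups of the control thus lay close together, and the OTM level was highest in the mixed MHC class II-high-like cluster. Its ratio ran from 0.178 after thinning to 0.474 at a finer clustering. The immature neutrophil markers in that cluster summed to 14707 CPM in the control and 40204 CPM in the OTM library, and their part in its Vegfa level was not tested. Mature neutrophil-like cells held the highest level in both libraries, 131 and 29.9 CPM, with a ratio of 0.229 (0.170 to 0.305), although in the OTM library their interval overlapped that of the MHC class II-high-like cells. The basophil transcripts of this control group (Mcpt8 at 184 CPM from 316 UMIs, against 1.96 CPM from 4 UMIs in the OTM library) differed in the same direction, and their part in the Vegfa value was not tested. Immature neutrophil-like cells had 72.1 and 19.3 CPM (0.268, 0.188 to 0.375, and 0.165 at the finer clustering). Early neutrophil-like cells, that is progenitors and dividing immature cells together, had the lowest control level, 35.6 CPM, and 12.9 CPM in the OTM library (0.362, 0.243 to 0.532). Every interval of these 6 ratios lay below 1. With only cells of at least 200 genes per 1000 UMIs kept, the early neutrophil-like ratio was 0.755, inside the fold. With both libraries clustered together, nonclassical monocyte-like cells stood at 54.4 CPM (37 UMIs) and 22.6 CPM (36 UMIs), a ratio of 0.415 (0.255 to 0.674).

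**Figure D2:**
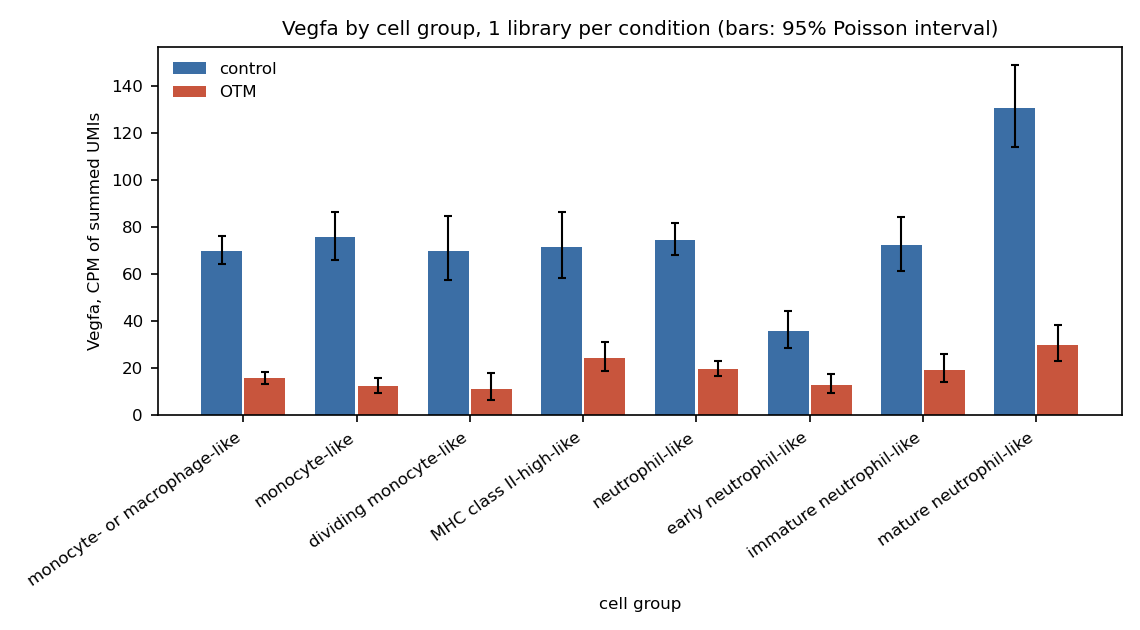
Vegfa in CPM of summed UMIs (y axis) by cell group (x axis) in the control (blue) and OTM (red) libraries, with 95% Poisson intervals as error bars and 1 library per condition. The control bars run from 35.6 CPM in early to 131 CPM in mature neutrophil-like cells, and each OTM bar and its interval lie below the control bar beside it.

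The lower level came with fewer cells in which Vegfa was captured. With each cell thinned to 2000 UMIs, 12.4% of control monocyte- or macrophage-like cells (181 of 1464, interval 10.7 to 14.2) and 2.29% of OTM cells (23 of 1003, 1.46 to 3.42) held a Vegfa UMI. In neutrophil-like cells the shares were 14.8% (168 of 1138, 12.8 to 17.0) and 5.82% (61 of 1049, 4.48 to 7.41). In dividing monocyte-like cells a UMI was held by 11.7% of 171 control cells and by 0 of 112 OTM cells (interval up to 3.24%), whereas in early neutrophil-like cells the intervals overlapped, with 5.28% of 246 (2.84 to 8.87) and 3.66% of 246 (1.69 to 6.83). Without thinning the shares were 23.8% and 10.1% in the first class and 24.2% and 11.8% in the second, at median depths of 4356 and 7833 UMIs and of 3171 and 4936 UMIs. The thinning left out 41 and 136 control cells of the 2 classes that were too shallow, and 0 OTM cells. In the 46 control cells of the B cell-like cluster, not a myeloid type, Vegfa stood at 70.7 CPM (43.2 to 109), with UMIs in 8 of 45 thinned cells (17.8%, 8.00 to 32.1) and in 28.3% of unthinned cells at a median of 4783.5 UMIs. By share of cells, the monocyte- or macrophage-like value is thus no higher than that of the B cell-like cells. S100a8, an abundant neutrophil gene, reached 5.75% of its all-cell level in these B cell-like cells, and Vegfa 98.5%. The Vegfa value rests on 20 UMIs. Hbb-bs, a hemoglobin gene, stood at 4233 CPM in these cells and at 166 CPM in control monocyte- or macrophage-like cells. Whether B cells make Vegfa here was not tested.

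Genes that answer quickly to handling and digestion also differed between the libraries, as measured after the Vegfa values were known. In monocyte- or macrophage-like cells the OTM over control ratio was 0.627 for Fos, 0.582 for Jun, 0.390 for Atf3, 0.284 for Hspa1a and 0.601 for Egr1. Within this class, in MHC class II-high-like cells, the ratio was 1.12 for Fos, 1.35 for Jun and 1.68 for Egr1, but 0.613 for Atf3 and 0.599 for Hspa1a. In neutrophil-like cells it was 0.550 for Fos, 0.481 for Atf3 and 0.453 for Egr1, but 1.18 for Jun and 1.08 for Hspa1a. Their part in the Vegfa difference was not tested.

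The sensors differed in direction. Hif1a, the oxygen-regulated subunit of HIF-1, stood at 84.0 CPM in control and 130 CPM in OTM monocyte- or macrophage-like cells, a ratio of 1.55 (1.41 to 1.71). In neutrophil-like cells it stood at 52.3 and 48.5 CPM, a ratio of 0.927 (0.796 to 1.08), and whether the classes differ was not tested over replicates. The neutrophil value ran from 0.887 to 1.48 over the alternatives, the upper end with at least 200 genes per 1000 UMIs, so its direction is not settled. The value in the first class was 1.38, inside the fold, after thinning. Egln1 was lower in both: 10.6 CPM (84 UMIs) and 4.93 CPM (44 UMIs) in the first class, ratio 0.463 (0.314 to 0.675), and 6.40 CPM (40 UMIs) and 3.18 CPM (24 UMIs) in the second, ratio 0.497 (0.286 to 0.844). Without the early cells the second ratio was 0.673, just inside the fold. No finer group had enough Egln1 UMIs to compare. Egln3 was near the limit of capture, with 40 control and 33 OTM UMIs over all cells, and 15.2 CPM in the control progenitor-like cells was its highest level.

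The glucose transporters did not share 1 pattern. Slc2a1 (GLUT1) was carried mainly by monocyte- or macrophage-like cells, at 32.2 CPM in the control and 47.4 CPM in the OTM library (ratio 1.47, 1.26 to 1.73), and in neutrophil-like cells at 12.5 and 21.6 CPM (1.73, 1.31 to 2.30), a ratio that came to 2.89 after thinning. Slc2a6, a lysosomal transporter of the family, had ratios of 1.298 (1.11 to 1.52) and 1.83 (1.42 to 2.38). Within the neutrophils it was highest in the mature cells, 33.3 CPM in the control and 67.2 CPM in the OTM library. Slc2a3 (GLUT3) was higher in neutrophil-like cells, at 77.6 and 81.2 CPM there (ratio 1.05, 0.927 to 1.18). Among control neutrophils it ran from 4.35 CPM in progenitor-like to 121 CPM in mature neutrophil-like cells. Its control level among monocyte- or macrophage-like cells was 16.6 CPM. In that class its ratio split: 0.545 (0.342 to 0.867) in monocyte-like cells, from 42 and 38 UMIs, but 4.13 (2.51 to 7.19) in MHC class II-high-like cells, from 18 and 131 UMIs. The OTM MHC class II-high-like cells also carried more neutrophil RNA: the 7 immature neutrophil markers summed to 14707 CPM in the control and 40204 CPM in the OTM library, and the 8 mature ones to 3073 and 12408 CPM. The part of these transcripts in the Slc2a3 value was not tested.

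In the upper, energy-consuming steps, 2 of 8 enzymes were past the fold in the monocyte- or macrophage-like and 1 in the neutrophil-like cells, all upwards (5.39% and 5.92% of all genes). Gpi1, glucose-6-phosphate isomerase, stood at 238 and 385 CPM in the first class (ratio 1.62, 1.53 to 1.71), 344 and 627 CPM in the second (1.82, 1.73 to 1.91). It was also past the fold in all 6 finer groups, from 1.57 in dividing monocyte-like to 2.01 in mature neutrophil-like cells. Pfkl, the liver-type phosphofructokinase, had 8.75 and 14.1 CPM in the first class (1.61, 1.19 to 2.20), from 69 and 126 UMIs. Aldoa (aldolase) lay at 398 and 492 CPM in the first class (1.24, 1.18 to 1.29) and 410 and 526 CPM in the second (1.28, 1.22 to 1.35), within the fold in both. Tpi1, triose phosphate isomerase, had ratios of 1.29 (1.17 to 1.42) and 1.00 (0.885 to 1.14). Pfkp and Hk1 had intervals that included 1 in monocyte- or macrophage-like cells, with ratios of 0.915 and 0.907.

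The hexokinases, which trap glucose in the cell, divided the classes. Hk2 was 112 CPM in control monocyte- or macrophage-like cells and 31.2 CPM in control neutrophil-like cells, 3.58 times higher in the former, and Hk3 was 30.04 and 70.7 CPM, 2.35 times higher in the latter. Between the libraries Hk2 was lower in the OTM monocyte- or macrophage-like cells, at 88.0 CPM (ratio 0.788, 0.715 to 0.868), while Hk3 was 30.9 CPM there (1.03, 0.862 to 1.23). The lowest Hk2 ratios were in mature neutrophil-like (0.607, 0.391 to 0.933) and MHC class II-high-like cells (0.608, 0.502 to 0.738). Hk2 was not above 1 in any of the 6 finer groups, yet it was higher per cell in the first class, with 58.5 UMIs per 100 control and 78.3 per 100 OTM cells.

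The bifunctional enzymes that set the activator of phosphofructokinase, Pfkfb3 and Pfkfb4, went the other way from Pfkl. Pfkfb3 stood at 29.7 and 17.3 CPM in monocyte- or macrophage-like cells (0.582, 0.472 to 0.716) and at 0.490 (0.365 to 0.657) of the control level in monocyte-like cells. Pfkfb4 stood at 13.1 and 8.29 CPM (0.635, 0.465 to 0.865). Pfkfb3 came inside the fold with at least 200 genes per 1000 UMIs (0.679), and Pfkfb4 with TMM (0.710) and joint clustering (0.671). In neutrophil-like cells both intervals included 1, with ratios of 0.851 (0.606 to 1.20) and 0.988 (0.730 to 1.34).

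In the lower, energy-yielding steps, the intervals of all 5 enzymes lay above 1 in monocyte- or macrophage-like cells, and of 3 in neutrophil-like cells. The share of all genes with such an interval was not computed, and these intervals narrow as the number of UMIs rises. Pkm, which makes pyruvate, stood at 568 and 876 CPM in the first class (1.54, 1.49 to 1.60) and 635 and 968 CPM in the second (1.52, 1.47 to 1.58), where it came inside the fold under 5 of 11 alternatives (lowest 1.44). Gapdh, the dehydrogenase that opens the energy-yielding steps, stood at 595 and 866 CPM (1.45, 1.40 to 1.51) and at 618 and 809 CPM (1.31, 1.26 to 1.36). Eno1 (enolase) had ratios of 1.27 in both classes (1.22 to 1.33 and 1.21 to 1.34). Pgk1, phosphoglycerate kinase, had 1.21 (1.05 to 1.41) and 0.982 (0.823 to 1.17), and Pgam1, phosphoglycerate mutase, 1.12 (1.04 to 1.20) and 0.927 (0.855 to 1.01). Gapdh, Pkm and Eno1 were above 1, interval included, in all 6 finer groups. Gapdh, Pgk1, Eno1, Ldha, Tpi1 and Mif have near-identical copies or pseudogenes in the mouse genome, so part of their reads could have been lost or split in the counting.

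The lactate branch was higher in the OTM library in both classes. Ldha, which turns pyruvate into lactate, stood at 356 and 573 CPM in monocyte- or macrophage-like cells (1.61, 1.54 to 1.68) and at 525 and 798 CPM in neutrophil-like cells (1.52, 1.46 to 1.59). Its largest ratio among the finer groups was 2.02 (1.80 to 2.28), in dividing monocyte-like cells. Slc16a3 (MCT4), the exporter, stood at 83.3 and 126 CPM in the first class (1.51, 1.37 to 1.66) and at 203 and 277 CPM in the second (1.37, 1.27 to 1.47). Without the MHC class II-high-like cells, an alternative chosen after seeing the data, Slc16a3, with its largest ratio of 2.59 in those cells, was no longer past the fold in the first class, at 1.12. Slc16a3 also came inside the fold with at least 200 genes per 1000 UMIs (1.10), with equal weight per cell (1.41) and without called doublets (1.48). With totals that left out the most abundant genes it was 1.495, so that 5 of 11 alternatives put it inside the fold. Without the MHC class II-high-like cells, and so with the same uneven mix of cells, Ero1l came to 1.35 and Pkm to 1.4998, just inside the limit. On that set Ldha stayed at 1.53 and Gpi1 at 1.60. Over the whole first class the immature neutrophil markers summed to 13731 CPM in the control and 26529 CPM in the OTM library, and the part of neutrophil RNA in these ratios was not tested further. Pdk1, the kinase that keeps pyruvate out of the mitochondrion, had 41 control and 46 OTM UMIs over all cells.

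Summed over the 14 enzymes from hexokinase to lactate dehydrogenase, glycolytic transcripts made up 0.310% of all UMIs in control and 0.428% in OTM monocyte- or macrophage-like cells (ratio 1.38, 1.36 to 1.41), and 0.339% and 0.470% in neutrophil-like cells (1.39, 1.36 to 1.41). In the control the neutrophil-like value was 1.09 times the other, a smaller ratio than those between the libraries. Among the finer groups, dividing monocyte-like cells carried the most in the OTM library, 5560 CPM (5441 to 5680), while the control value was 3793 CPM (3696 to 3892). MHC class II-high-like cells carried the least of the 6 in the control, 2604 CPM (2522 to 2687), and had the largest ratio, to 4043 CPM in the OTM library (1.55, 1.496 to 1.61), but the OTM cluster of this name was the mixed one described above. Control progenitor-like cells had 3992 CPM (3864 to 4123). In dividing monocyte-like cells Gapdh reached 870 CPM in the control and 1292 CPM in the OTM library, and Pkm 734 and 1092 CPM, the highest of the named myeloid groups in each library.

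**Figure D3:**
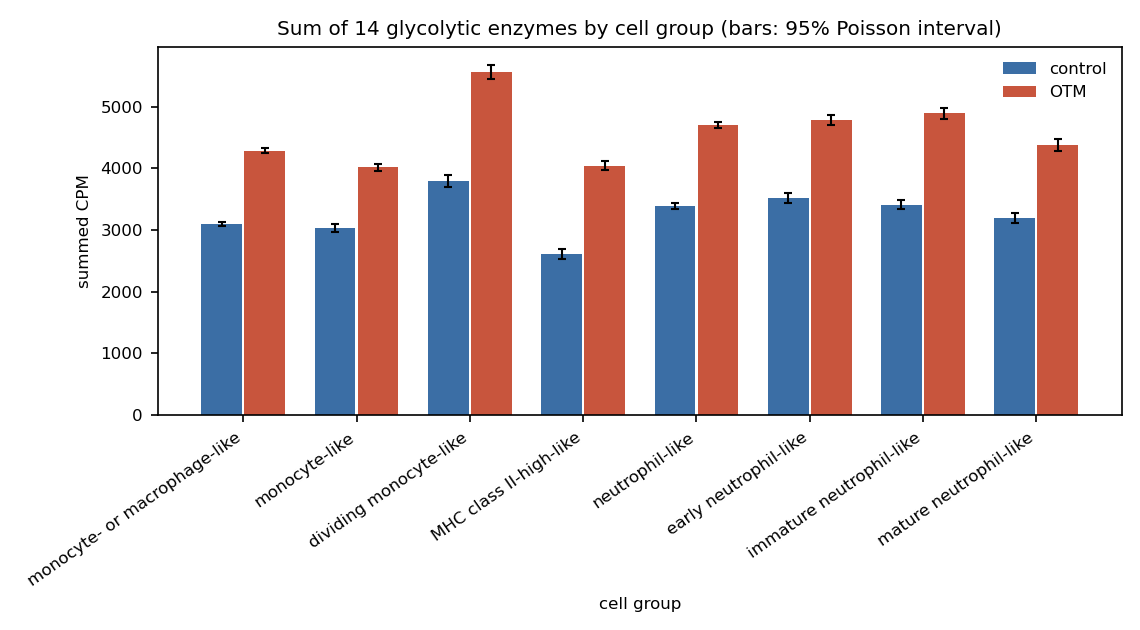
Summed CPM of the 14 glycolytic enzymes (y axis) by cell group (x axis) in the control (blue) and OTM (red) libraries, with 95% Poisson intervals as error bars and 1 library per condition. Every OTM bar is above its control bar, by ratios from 1.32 in monocyte-like to 1.55 in MHC class II-high-like cells.

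The remaining hypoxia targets showed no common direction. Of the 8 with enough UMIs beside Vegfa, 1 was past the fold upwards and 0 downwards in the first class (5.39% and 16.6% of all genes), and 0 upwards and 4 downwards in the second (5.92% and 17.9%). Ero1l, an oxidase of protein folding, stood at 31.4 and 48.0 CPM in monocyte- or macrophage-like cells (1.53, 1.304 to 1.79, and 1.31 after thinning) and at 72.0 and 84.3 CPM in neutrophil-like cells (1.17, 1.04 to 1.32). Ddit4, an inhibitor of mTORC1, stood at 33.5 and 46.8 CPM in the first class (1.40, 1.20 to 1.64) and reached a ratio of 2.83 (1.80 to 4.57) in dividing monocyte-like cells, from 27 and 75 UMIs. The mitophagy receptor Bnip3l had ratios of 1.16 (1.07 to 1.25) and 1.28 (1.18 to 1.39), and its relative Bnip3 1.27 (0.989 to 1.63) and 0.815 (0.564 to 1.18).

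Ndrg1, a stress-response gene, stood at 53.7 and 41.9 CPM in the first class (0.780, 0.677 to 0.898) and at 17.6 and 9.67 CPM in the second (0.549, 0.403 to 0.745). P4ha1, a collagen prolyl hydroxylase subunit, had 30.5 and 25.3 CPM (0.829, 0.688 to 0.998) and 6.40 and 3.71 CPM (0.580, 0.344 to 0.963). Higd1a, a mitochondrial inner membrane protein, had 157 and 135 CPM (0.858, 0.792 to 0.930) and 80.0 and 50.9 CPM (0.636, 0.555 to 0.728). Adm had 2 control UMIs and 1 OTM UMI over all cells, and Ak4 5 and 2. The neutrophil values of P4ha1 and Higd1a turned upwards, to 1.55 and 1.12, when only cells with at least 200 genes per 1000 UMIs were kept. This left 958 control and 482 OTM neutrophil-like cells of unlike stages. By cluster name they were 413 mature, 428 immature and 117 early cells in the control, but 436 mature and 46 early cells in the OTM library. After thinning P4ha1 was 0.949 and Higd1a 0.863, and with equal weight per cell 0.794 and 0.763, also inside the fold. Under the same filter Ndrg1 was 0.936, Mif 0.692, Gpi1 1.48, Pkm 1.44 and Ldha 1.26 in these cells, all inside the fold, and Vegfa 0.375.

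Mif, a cytokine that many hypoxic cells release, was unevenly spread over cells. In neutrophil-like cells it stood at 156 CPM in the control and 48.0 CPM in the OTM library (0.307, 0.271 to 0.347), but 10 of the 1274 control cells held 45.2% of its UMIs. Control progenitor-like cells had 716 CPM (662 to 773) and resident macrophage-like cells 602 CPM (527 to 686), and B cell-like cells 770 CPM (671 to 880). Among the 46 B cell-like cells, 10 held 77.5% of the Mif UMIs. Without progenitor-like and dividing immature neutrophil-like cells, the neutrophil ratio was 0.6003. In monocyte-like cells Mif went the other way, with 71.5 CPM in the control and 111 CPM in the OTM library (1.55, 1.32 to 1.83).

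Across the classes, 12 members were at least 1.5 times higher in monocyte- or macrophage-like than in neutrophil-like cells in both libraries, against 40.0% of the 7694 genes with 50 or more UMIs in each library, and 4 were as much lower, against 7.62%. The 12 of 31 thus lay near the share of all genes. The 12 were Slc2a1, Slc2a6, Hk2, Pfkl, Pfkp, Pfkfb3, Hif1a, Egln1, Ndrg1, P4ha1, Ddit4 and Higd1a, led in the control by P4ha1 (4.77 times) and Hk2. The 4 on the neutrophil side were Slc2a3, Hk3, Slc16a3 and Ero1l, of which Slc2a3 was 4.67 times higher in control neutrophil-like cells. Gapdh, Aldoa, Eno1 and Pgam1 differed little, with control ratios of 0.964, 0.973, 1.01 and 0.972 between the classes. The members were not among the variable genes that formed the clusters.

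**Figure D4:**
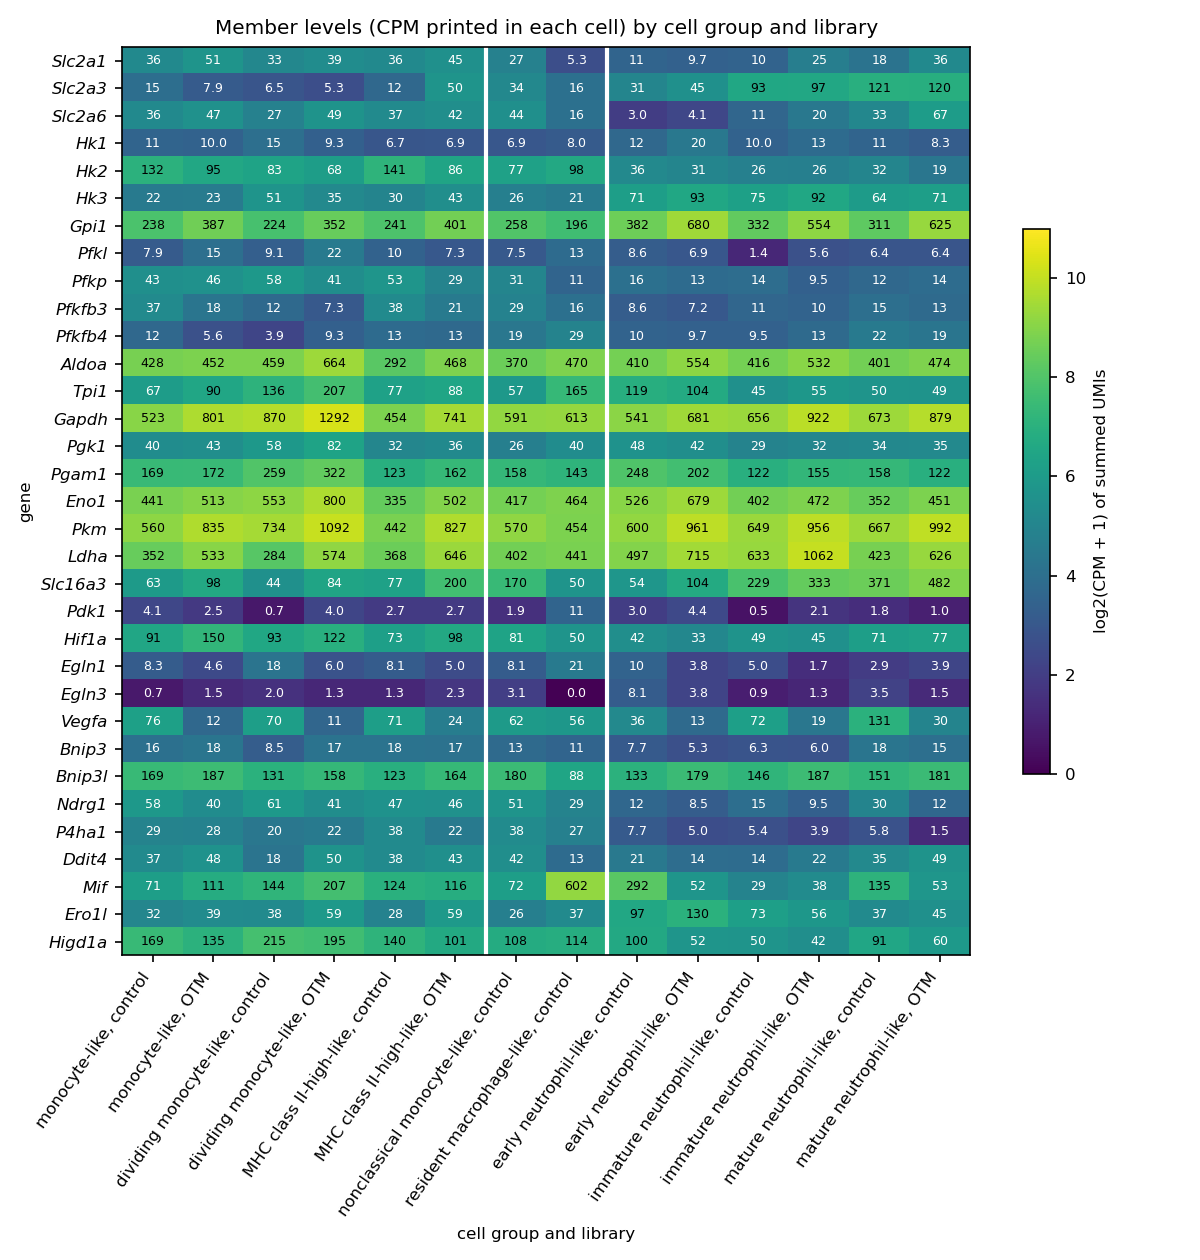
Levels of 33 members (rows, all but Adm and Ak4) in 14 pairs of cell group and library (columns), coloured by log2(CPM + 1) with the CPM written in each field; white lines part the monocyte groups of both libraries, the 2 groups found in the control only, and the neutrophil groups. Gapdh, Pkm, Ldha, Eno1, Aldoa and Gpi1 are high in every column, while Hk2, P4ha1 and Ndrg1 are higher to the left and Hk3 to the right. Slc2a3 and Slc16a3 are highest in the immature and mature neutrophil columns.

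Of 76 further genes of glucose use and the hypoxia response, listed by function, 50 had enough UMIs in monocyte- or macrophage-like cells. There 7 were past the fold upwards (5.39% of all genes) and 4 downwards (16.6%), with a median log2 ratio of 0.07, against -0.16 over all genes. In neutrophil-like cells 42 had enough UMIs, 3 were past it upwards (5.92%) and 1 downwards (17.9%), with a median of 0.03, against -0.15. Upp1, which breaks down uridine, was the highest in neutrophil-like cells, at 29.1 and 108 CPM (3.73, 3.17 to 4.40), and had a ratio of 2.80 (2.24 to 3.53) in monocyte- or macrophage-like cells, or 1.69 with at least 200 genes per 1000 UMIs. Sdc4, a cell-surface proteoglycan, stood at 64.8 and 196 CPM in the latter (3.03, 2.74 to 3.35) and had a ratio of 3.27 (1.93 to 5.82) in neutrophil-like cells, from 18 and 71 UMIs, which came to 9.56 with at least 200 genes per 1000 UMIs. Cited2, a brake on HIF-1, stood at 95.7 and 168 CPM in the first class (1.75, 1.60 to 1.91). Hmox1, heme oxygenase, stood at 29.4 and 59.7 CPM in neutrophil-like cells (2.03, 1.71 to 2.42).

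Arg1, the arginase of activated macrophages, had 2 control and 74 OTM UMIs in the first class, a ratio of 32.7 with a wide interval (8.74 to 275). With at least 200 genes per 1000 UMIs required it was 1.27. Bpgm, an enzyme of red cells, had 22 and 66 UMIs there (2.65, 1.62 to 4.51, but 0.969 with that filter and 0.983 with joint clustering), beside hemoglobin and other erythroid markers that summed to 331 CPM in the control and 6682 CPM in the OTM library. Cxcr4, a chemokine receptor induced by hypoxia, was lower in both classes, at 311 and 93.0 CPM (0.299, 0.276 to 0.323) and at 138 and 48.5 CPM (0.351, 0.310 to 0.397, and 0.593 with that filter). In the first class Eno3, the muscle enolase, stood at 25.5 and 7.51 CPM (0.295, 0.220 to 0.390). Eno3 was 0.142 without the MHC class II-high-like cells, a set in which only the control held nonclassical monocyte-like and resident macrophage-like clusters. The transporter gene Slc16a7 stood at 5.45 and 3.25 CPM in the first class (0.596, 0.359 to 0.977). It came inside the fold with that filter (0.730) and with equal weight per cell (0.743).

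**Figure D5:**
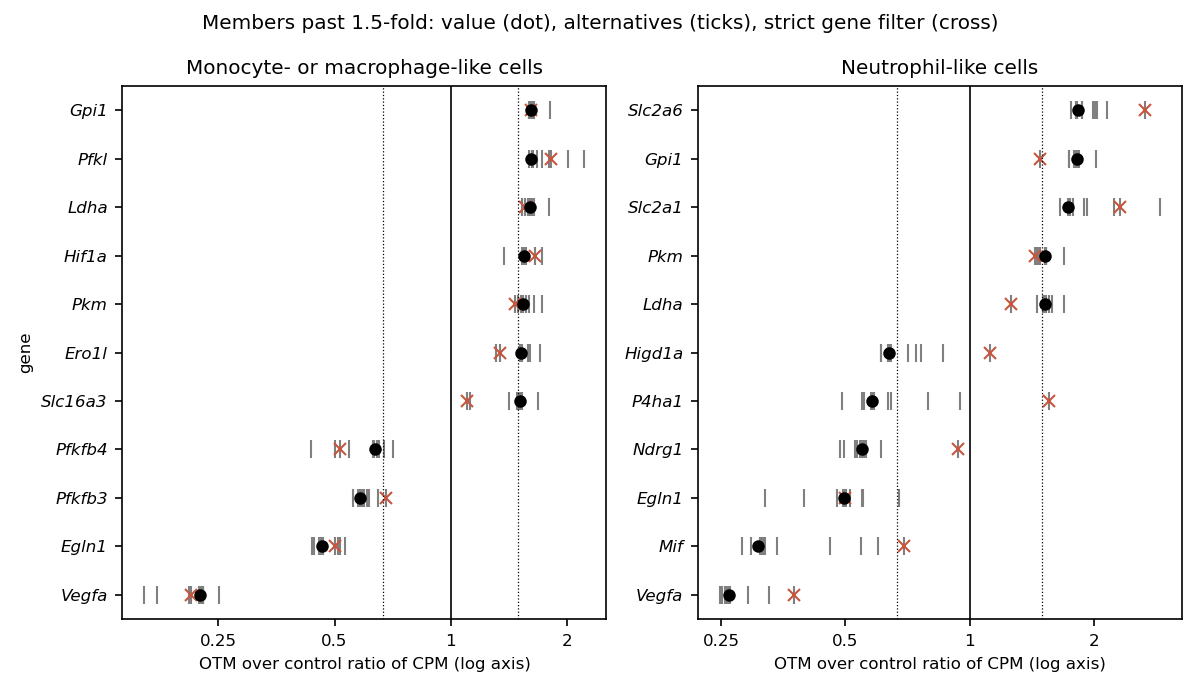
OTM over control ratio of CPM (x axis, log scale) of the members past 1.5-fold (y axis) in monocyte- or macrophage-like cells (left) and neutrophil-like cells (right). Dots are the reported values, ticks the alternative processings and crosses the filter of 200 genes per 1000 UMIs; Vegfa stays between 0.161 and 0.251 on the left and between 0.248 and 0.375 on the right, and in neutrophil-like cells P4ha1 and Higd1a cross 1 under that filter.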

How the data were processed

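The authors aligned the reads to mm10 and deposited, per library, raw UMI counts for each gene and cell barcode, not normalized; the submitters' processing notes name Cell Ranger 3.0.0 and Seurat 3.0.0. The tables held 2863 control and 2058 OTM barcodes, fewer than the study states it kept, and 6 barcodes occurred in both. Cells with at least 200 genes and at most 5% mitochondrial UMIs were kept. The methods' wording, 200 genes per 1000 UMIs, would keep 85.4% of control but 61.0% of OTM barcodes and was run as an alternative. Under it the control kept 428 immature neutrophil-like cells while no OTM cluster had this name, so its neutrophil-like ratios compare unlike mixes of stages. Each library was clustered alone (Seurat 5.3.0, R 4.3.3; 12 and 8 principal components, 20 neighbours, resolution 0.6, seed 42), without the member and listed pathway genes among the variable features. A cluster was named by the marker list with the highest mean z-score, of at least 0.5, with at least 3 markers found in 10% of its cells; lists of other cell types also needed 2 of the 10 leading genes. No cluster was named osteoclast-like. Scrublet (scanpy 1.11.5) called 1 control and 6 OTM doublets, too few to count as working, so doublets stayed in.

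UMIs were summed per cell group using scipy 1.17.1, numpy 2.4.6 and pandas 2.3.3 under Python 3.11.15. Levels have exact Poisson, ratios exact conditional binomial and shares Clopper-Pearson 95% intervals; 0.5 UMIs were added before a log2 ratio. Functions were tested on simulated data. TMM factors came from edgeR 4.0.16, without its tests. With 1 library per condition no p-value was computed.

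The members and lists were chosen with earlier results of these data known, and Vegfa was singled out so. Named were all 35 members and, of the pathway list, the 5 highest and 5 lowest ratios past the fold in each class, except for 1 gene that is not reported here. Gene positions are GENCODE vM21 and promoters RefSeq, both on GRCm38. The alternatives were the filter, 2 scalings, equal weight per cell, thinning, 2 resolutions, members allowed as variable features, joint clustering, doublet removal, other UMI minima and a 2-fold limit.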

Additional observations from a re-analysis of the deposited data

Results flagged for a closer look

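A pair of members had ratios past the fold in opposite directions in different cell groups, with both counting intervals away from 1. These differences between groups were not tested, since each rests on 1 library per condition. Slc2a3 had an OTM over control ratio of 4.13 in MHC class II-high-like and 0.545 in monocyte-like cells. Mif had a ratio of 1.55 in monocyte-like cells, but 0.395 in mature neutrophil-like and 0.177 in early neutrophil-like cells. In control early neutrophil-like cells, 10 of 246 cells held 62.2% of the Mif UMIs. In OTM monocyte-like cells, 10 of 628 cells held 18.8%.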

How the results depend on the processing

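No paired analysis was possible because each condition had 1 library, and no replicate could be left out. Of 62 single-member ratios in the 2 classes, 22 were past the fold, of which 8 kept their side of it under every alternative that gave a value. Of the 40 inside the fold, 32 stayed inside it. In monocyte- or macrophage-like cells Vegfa ranged from 0.161 to 0.251 and in neutrophil-like cells from 0.248 to 0.375. The summed enzymes ranged from 1.33 to 1.55 and from 1.25 to 1.54, past the fold only with TMM. With 200 genes per 1000 UMIs required, P4ha1 (1.55) and Higd1a (1.12) turned upwards in neutrophil-like and Bpgm (0.969) downwards in monocyte- or macrophage-like cells, where joint clustering also put Bpgm at 0.983. The causes of these moves were not tested, and under that filter no OTM cluster was named immature neutrophil-like, against 428 such control cells.

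Counts of members past the fold moved by over 1.5 times as follows. For these counts and those of the pathway list below, shares over all genes were computed only for the reported values and TMM. Over all cells TMM gave 818 genes higher and 984 lower of 9409, in place of 431 and 1733. The counts under the other settings therefore show how the calls depend on the processing, and are no result about the members. Over all cells, from 4 higher and 4 lower, they came to 2 lower with 200 genes per 1000 UMIs, to 11 higher and 2 lower with TMM, to 2 lower with equal weight per cell, to 7 higher after thinning, and to 0 higher and 2 lower at 2-fold. In monocyte- or macrophage-like cells, from 7 and 4, they came to 2 lower with at least 200 UMIs, and to 0 higher and 2 lower at 2-fold. In neutrophil-like cells, from 5 and 6, they came to 1 lower with the gene filter, to 3 higher with totals that left out S100a8, S100a9, hemoglobin, ribosomal protein and mitochondrial genes, and to 3 lower each after thinning, with at least 200 UMIs, and without progenitor-like and dividing immature cells (chosen after seeing the data). At 2-fold they came to 0 higher and 2 lower. Members on the monocyte side in both libraries fell from 12 to 5 with the gene filter and to 5 at 2-fold.

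For the pathway list over all cells (3 higher, 5 lower), the counts were 6 higher with the gene filter, 8 higher with TMM, 5 higher with equal weight per cell, 3 lower after thinning, 2 lower with at least 200 UMIs, 6 higher and 16 lower with at least 1 UMI, and 3 lower at 2-fold. In monocyte- or macrophage-like cells (7 and 4) they were 4 higher and 2 lower with at least 200 UMIs, 11 higher and 12 lower with at least 1 UMI, and 4 higher at 2-fold. In neutrophil-like cells (3 and 1) they were 8 higher and 3 lower with the gene filter, 5 higher with TMM, 2 lower with the reduced totals, 4 lower with equal weight per cell, 3 lower after thinning, 2 lower without called doublets, 3 lower without the early cells, and 6 higher and 12 lower with at least 1 UMI.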
